A study of Mus musculus with 8 samples.

Results

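Vitamin A is turned into retinoic acid in a pair of oxidation steps and is read out by nuclear receptors, and 10 mouse genes of that route are described here in mature eggs with and without Esrp1. They are the retinol dehydrogenase Rdh10, the retinaldehyde dehydrogenases Aldh1a1, Aldh1a2 and Aldh1a3, the receptors Rara, Rarb, Rarg, Rxra and Rxrb, and the retinoic acid hydroxylase Cyp26b1. The genes were chosen by name with the difference between the groups in Aldh1a2 already known, so their own differences between the groups are given as a description, without a test. Of the 24860 Ensembl genes listed in every library, 9 were among these 10, and 2 of the 9, Aldh1a2 and Rdh10, passed the filter, which asked for 1 FPKM or more on average across the 8 libraries. FPKM are fragments scaled to the length of the transcript and to the size of the library, so levels can be set side by side roughly between genes. Cyp26b1 was not analysed here.

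The eggs were MII oocytes, that is, mature eggs waiting in the second meiotic metaphase, and came from C57BL/6 females aged 6 weeks, labelled postnatal day 42. The Esrp1-KO group, of genotype Esrp1-/-, had 4 libraries, and the WT group, wild type at Esrp1, had 4 libraries. A library stood for 15 oocytes lysed in 1 tube and amplified with Smart-seq2, a poly(A)-primed method blind to the RNA's strand. ESRP1 is an RNA-binding protein known for controlling alternative splicing in epithelial cells. No label names a Cre driver for the deletion or the line it was made in. The design text calls the libraries biological replicates but ties no tube to an animal, and the p-values here thus describe how tubes differ.

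Retinol is oxidised to retinal by retinol dehydrogenases, of which RDH10 is the main one in the mouse embryo, and retinal is oxidised irreversibly to retinoic acid by ALDH1A1, ALDH1A2 and ALDH1A3. Retinoic acid binds the receptors RARA, RARB and RARG, which sit on DNA as heterodimers with RXRs, and CYP26 enzymes clear it. In the ovary, retinoic acid has been linked to the start of meiosis in fetal germ cells, a step long past in MII oocytes.

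Stretches of 250 bases upstream of a start site, from RefSeq on GRCm38.p6, are shown for 3 of the genes: Aldh1a2, which carries the main difference; Aldh1a1, its close relative, which was near 0; and Rarb, a textbook target of retinoic acid. Of the 10 genes, 8 had an entry, and Rdh10 and Aldh1a3 had none. Each is written 5′ to 3′ on the strand of the gene, with the motifs found by the search in capitals: ATGCAAAT (the octamer bound by POU factors) and CCAAT in Aldh1a2 and Aldh1a1, and in Rarb a direct repeat of 6-base sites spaced by 5 bases, the layout of a classical retinoic acid response element. The Aldh1a2 stretch lies at chr9:71215539-71215788 on the plus strand, the Aldh1a1 stretch, at the second of its starts, at chr19:20601718-20601967 on the plus strand, and the Rarb stretch at chr14:16575477-16575726 on the minus strand. The stretch at the first start of Aldh1a1, chr19:20492333-20492582, held neither ATGCAAAT nor CCAAT.
Aldh1a2: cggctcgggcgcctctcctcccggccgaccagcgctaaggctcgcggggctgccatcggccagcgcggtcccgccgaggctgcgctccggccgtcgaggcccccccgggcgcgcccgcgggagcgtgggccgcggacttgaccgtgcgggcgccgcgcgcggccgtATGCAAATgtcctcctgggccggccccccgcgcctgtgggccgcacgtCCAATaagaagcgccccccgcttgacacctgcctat
Aldh1a1: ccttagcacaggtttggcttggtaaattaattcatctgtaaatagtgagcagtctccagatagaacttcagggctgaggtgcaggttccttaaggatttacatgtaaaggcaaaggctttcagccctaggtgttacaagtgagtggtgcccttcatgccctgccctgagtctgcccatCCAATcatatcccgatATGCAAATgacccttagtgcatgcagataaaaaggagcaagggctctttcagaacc
Rarb: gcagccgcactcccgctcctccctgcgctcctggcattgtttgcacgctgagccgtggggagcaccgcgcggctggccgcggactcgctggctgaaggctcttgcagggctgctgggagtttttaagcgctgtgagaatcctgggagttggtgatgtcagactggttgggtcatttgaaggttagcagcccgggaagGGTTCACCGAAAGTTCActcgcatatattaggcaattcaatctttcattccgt
The repeat, known as DR5, was searched on both strands and stood in 0.0883% of the 32851 promoters of this length. In Rarb it lay at bases -53 to -37 counted from the start site. ATGCAAAT, searched on both strands after the Aldh1a2 sequence had been read, stood in 1.60% of promoters, at bases -84 to -77 in Aldh1a2 and -56 to -49 in Aldh1a1. CCAAT stood in 33.9% of promoters, Rara among them. A match describes the letters only, and binding was not measured.

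In the whole comparison, 8021 genes passed the filter and were tested with limma on log2(FPKM + 1), with Benjamini-Hochberg adjustment over all of them and a threshold of 0.05. Esrp1 itself averaged 3.30 ± 0.68 FPKM in Esrp1-KO and 17.5 ± 1.42 FPKM in WT (SD, n = 4 each). The read totals implied by the values were 24910430 to 32337966 in Esrp1-KO and 25018186 to 28932104 in WT. Genes listed at 0 numbered 6770 to 7605 in the Esrp1-KO libraries and 4813 to 9659 in the WT libraries, with the fewest in WT replicate 1, so 3 of the low levels are also given below without it. Of the genes that passed the threshold, 62.5% were lower in Esrp1-KO, against 51.1% after quantile normalization and 52.1% after median-ratio scaling. Oocyte markers summed to 9806 to 11438 FPKM in Esrp1-KO and 8119 to 9099 FPKM in WT. Of the 12 markers, 11 were tested, and 5 (45.5%) were higher in Esrp1-KO and 1 (9.09%) was lower. Over all genes tested 13.9% were higher and 23.1% lower.

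Among the retinaldehyde dehydrogenases, Aldh1a2 was the one with a clear level in the egg, and it was nearly lost in Esrp1-KO, while Rdh10, one step upstream, was higher. Aldh1a2 (ENSMUSG00000013584, chr9:71215789-71296243, plus strand, GRCm38) had 1.48, 1.06, 0.524 and 1.41 FPKM in Esrp1-KO replicates 1 to 4, against 12.8, 12.4, 14.4 and 17.9 FPKM in WT replicates 1 to 4. The groups were far apart, since the highest Esrp1-KO library was well below the lowest WT library. The means were 1.12 ± 0.43 FPKM in Esrp1-KO and 14.4 ± 2.51 FPKM in WT (SD, n = 4 each), so Esrp1-KO eggs held 7.77% of the WT level, a 12.9-fold difference. On the log2(FPKM + 1) scale, which understates changes that end at a low level, the fold change was -2.87 ± 0.18 (SE), and it ranked 6 from the lowest of the 8021 genes tested. Over all of these genes the median was -0.06, and in WT the level of Aldh1a2 was at percentile 71.0.

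The reads behind these levels, recovered from the FPKM, numbered 34 to 108 per library in Esrp1-KO and 700 to 1173 in WT. Aldh1a2 shared none of its 50-base stretches with transcripts of other genes and no exon with a neighbour. Within Esrp1-KO, replicate 3 had the lowest Aldh1a2 level, and within WT replicate 4 had the highest.

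Rdh10 (ENSMUSG00000025921, chr1:16105774-16133734, plus strand) had 54.6, 48.7, 39.8 and 45.3 FPKM in Esrp1-KO and 29.0, 26.5, 27.7 and 29.7 FPKM in WT. Every Esrp1-KO library was above every WT library. The means were 47.1 ± 6.18 FPKM in Esrp1-KO and 28.2 ± 1.42 FPKM in WT (SD, n = 4 each), a ratio of 1.67, with 4748 to 7340 reads per Esrp1-KO library and 2753 to 3570 per WT library. The log2 fold change was 0.71 ± 0.12 (SE), ranking 664 from the highest of 8021. The FPKM of Rdh10 divided by that of Aldh1a2 within a library was 37.0, 45.8, 76.0 and 32.2 in Esrp1-KO and 2.26, 2.14, 1.92 and 1.66 in WT. The transcript of the retinol-oxidising enzyme was thus more abundant per length than that of the retinal-oxidising enzyme in all 8 libraries.

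The other retinaldehyde dehydrogenases were near 0 in both groups. Aldh1a1 (ENSMUSG00000053279, chr19:20492715-20643465) had 0.0376, 0.0163, 0 and 0.0215 FPKM in Esrp1-KO and 0.446, 0.0081, 0.108 and 0.035 FPKM in WT, and the groups overlapped. Its reads summed to 11 over the Esrp1-KO libraries and 79 over the WT libraries, and 58 of the 79 came from WT replicate 1. Without that library the WT mean of Aldh1a1 was 0.0504 FPKM, against 0.149 FPKM with it. Aldh1a3 (ENSMUSG00000015134, chr7:66390890-66427517) ranged from 0 to 0.023 FPKM in Esrp1-KO, on 5 reads in all, and from 0.00749 to 0.182 FPKM in WT, on 27 reads in all, of which WT replicate 2 gave 21. Aldh1a1 and Aldh1a3 were below the filter and were not tested. Most WT reads of each came from a single library, so no difference is read from them.

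**Figure D1:**
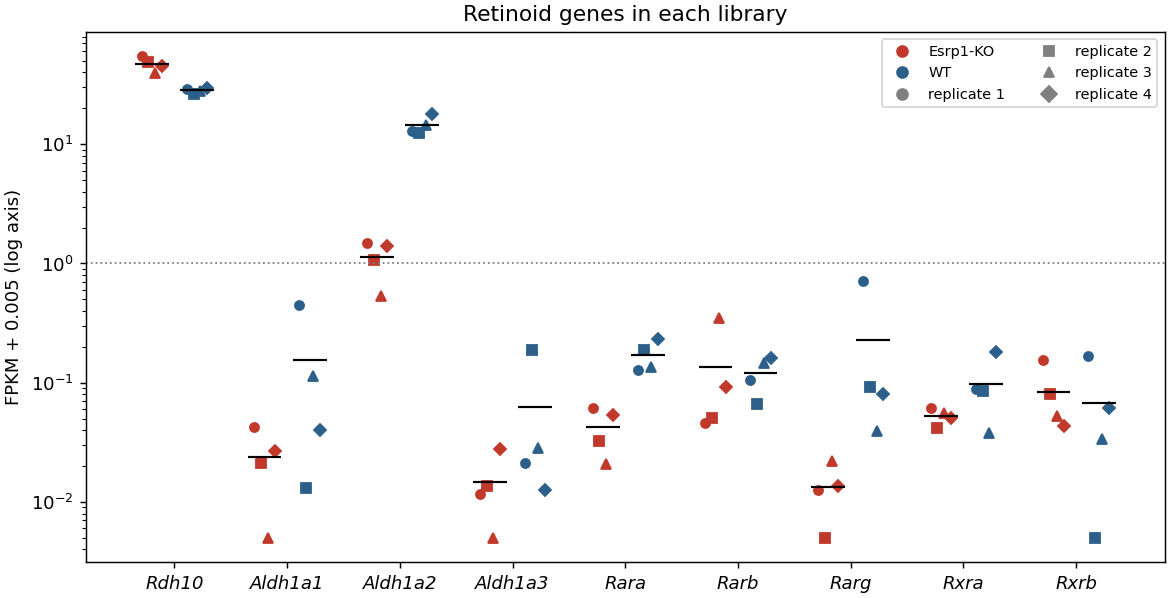
FPKM of the 9 listed retinoid genes in each library, with 0.005 added so that values of 0 can be drawn, on a log axis; points are libraries (red, Esrp1-KO; blue, WT; shapes, replicate numbers), bars are group means and the dotted line is at 1 FPKM. Aldh1a2 and Rdh10 stand above 1 FPKM in most or all libraries, and the receptors lie below 1 FPKM in all 8.

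The retinoic acid receptors were all under 1 FPKM in every library, and only a few reads stood behind them. Rara (ENSMUSG00000037992, chr11:98927818-98974942) had 0.0567, 0.0276, 0.016 and 0.0486 FPKM in Esrp1-KO and 0.122, 0.183, 0.130 and 0.230 FPKM in WT. The groups did not overlap, on 19 reads over the Esrp1-KO libraries and 79 over the WT libraries. Rarg (ENSMUSG00000001288, chr15:102234938-102257517) had 0.00753, 0, 0.017 and 0.00861 FPKM in Esrp1-KO and 0.701, 0.0875, 0.0346 and 0.0757 FPKM in WT. These groups did not overlap either, but 76 of the 98 reads in WT came from replicate 1, against 4 reads in all of Esrp1-KO. Leaving out WT replicate 1 took the Rarg difference, Esrp1-KO minus WT, to -0.058 FPKM, against -0.216 FPKM with it.

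Rarb (ENSMUSG00000017491, chr14:16430839-16819156), the gene with the response element printed above, had 0.0411, 0.0457, 0.345 and 0.0873 FPKM in Esrp1-KO and 0.101, 0.0607, 0.142 and 0.158 FPKM in WT. The groups overlapped, and 52 of its 78 Esrp1-KO reads came from replicate 3. Exons of other genes on the opposite strand, Top2b among them, cover 38.4% of the exons of Rarb, and without strand their reads cannot be told apart from those of Rarb. Top2b, a DNA topoisomerase, averaged 1.43 ± 0.16 FPKM in Esrp1-KO and 4.06 ± 0.17 FPKM in WT (SD, n = 4 each).

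The RXR partners of these receptors were as low. Rxra (ENSMUSG00000015846, chr2:27676440-27762957) ranged from 0.0367 to 0.0566 FPKM in Esrp1-KO and from 0.0325 to 0.177 FPKM in WT, on 30 and 56 reads. Rxrb (ENSMUSG00000039656, chr17:34031812-34038399) ranged from 0.0383 to 0.151 FPKM in Esrp1-KO and from 0 to 0.164 FPKM in WT, on 34 and 25 reads. Both genes overlapped between the groups.

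In WT the order of mean levels was Rdh10, Aldh1a2, and then Rarg, Rara, Aldh1a1, Rarb, Rxra, Rxrb and Aldh1a3, and the last 7 all lay within 0.057 to 0.225 FPKM with ranges that overlapped from each to the next. The places of Rarg and Aldh1a1 rested on WT replicate 1, and without it their WT means were 0.0659 and 0.0504 FPKM, below Rara (0.181), Rarb (0.12) and Rxra (0.0967). In Esrp1-KO Rdh10 and Aldh1a2 again led, and their libraries overlapped neither each other nor those of the remaining 7. Counted by groups that did not overlap, 3 of the 9 listed genes were lower in Esrp1-KO (Aldh1a2, Rara and Rarg) and 1 was higher (Rdh10). Over all 24860 genes, 11.9% had every Esrp1-KO value below every WT value and 6.58% had every Esrp1-KO value above. Of the 2 genes that passed the filter, 1 was past the threshold in each direction, against 23.1% of the 8021 tested genes that were lower and 13.9% that were higher. The genes were picked with this contrast in view, so nothing is read from these counts.

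The rest of the pathway was taken from 7 lists of 116 genes that left these 10 out. Of the 116, 92 were listed in the files and 38 passed the filter. Of the 38, 5 (13.2%) were higher in Esrp1-KO, 10 (26.3%) were lower and 23 did not pass the threshold, beside 13.9% higher and 23.1% lower over all genes tested. The median log2 fold change of the 38 was -0.07, beside -0.06 over all genes tested. Adjusted p-values below are from limma.

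**Figure D2:**
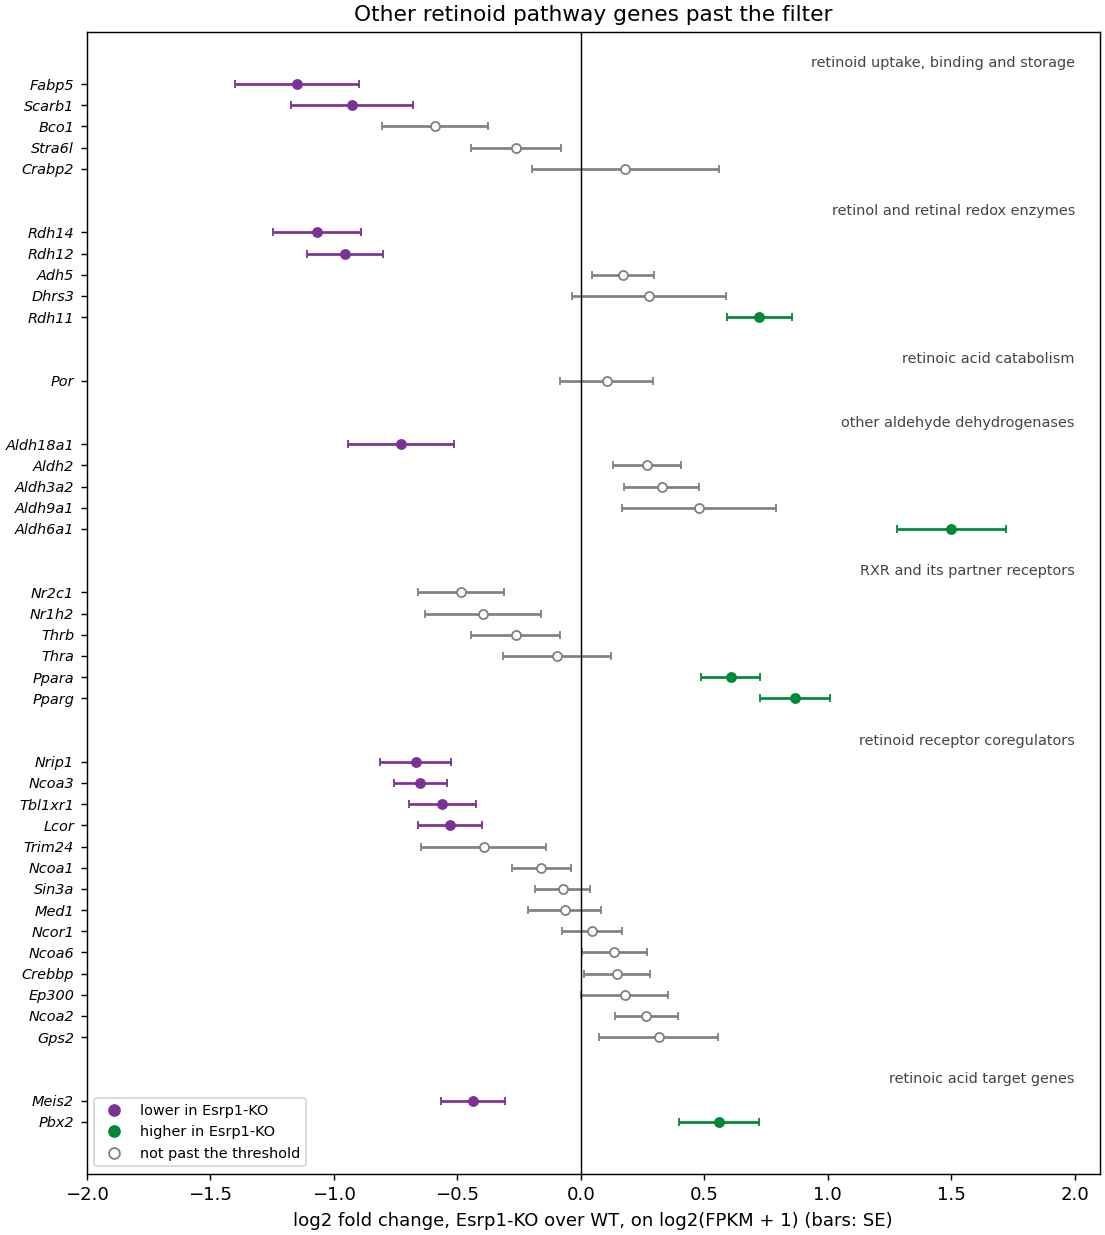
Log2 fold change (Esrp1-KO over WT, on log2(FPKM + 1)) of the 38 tested pathway genes by list, with SE bars; a gene on several lists is drawn in the first of them. Filled points passed the threshold: 10 were lower (purple), 5 were higher (green), and 23 open points did not pass.

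Of 15 listed enzymes that interconvert retinol and retinal, 5 passed the filter. Rdh11 was higher in Esrp1-KO, Rdh12 and Rdh14 were lower, and Adh5 and Dhrs3 did not pass the threshold. Over all genes tested 13.9% were higher and 23.1% lower, and nothing is read from counts out of 5. Rdh12 (chr12:79208914-79222665, plus strand), known for reducing retinal in photoreceptors, had 8.99, 10.9, 11.5 and 9.83 FPKM in Esrp1-KO and 19.9, 16.2, 23.9 and 24.5 FPKM in WT. All Esrp1-KO libraries lay below all WT libraries, with a log2 fold change of -0.95 ± 0.15 (SE, adjusted p = 0.00114). Rdh11 (chr12:79174337-79192293, minus strand), a related retinal reductase, had 10.5, 9.55, 7.36 and 10.5 FPKM in Esrp1-KO and 5.31, 5.46, 5.15 and 5.26 FPKM in WT. All Esrp1-KO libraries lay above all WT libraries, with a log2 fold change of 0.72 ± 0.13 (SE, adjusted p = 0.00222). The gap between these neighbouring genes is 16.6 kb, and they went in opposite directions.

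Rdh14, of the same family, averaged 4.99 ± 0.86 FPKM in Esrp1-KO and 11.7 ± 3.0 FPKM in WT (SD, n = 4 each; log2 fold change -1.07 ± 0.18, adjusted p = 0.00138). Among those that did not pass, Adh5, a glutathione-dependent formaldehyde dehydrogenase with some activity on retinol, averaged 75.4 ± 3.23 FPKM in Esrp1-KO and 67.3 ± 9.01 FPKM in WT (adjusted p = 0.307). Dhrs3, which returns retinal to retinol and is induced by retinoic acid in embryos, averaged 1.38 ± 0.89 FPKM in Esrp1-KO and 0.95 ± 0.64 FPKM in WT (adjusted p = 0.522). With the values of Aldh1a2 and Rdh10, the enzymes of the route therefore held members that were lower and members that were higher side by side.

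**Figure D3:**
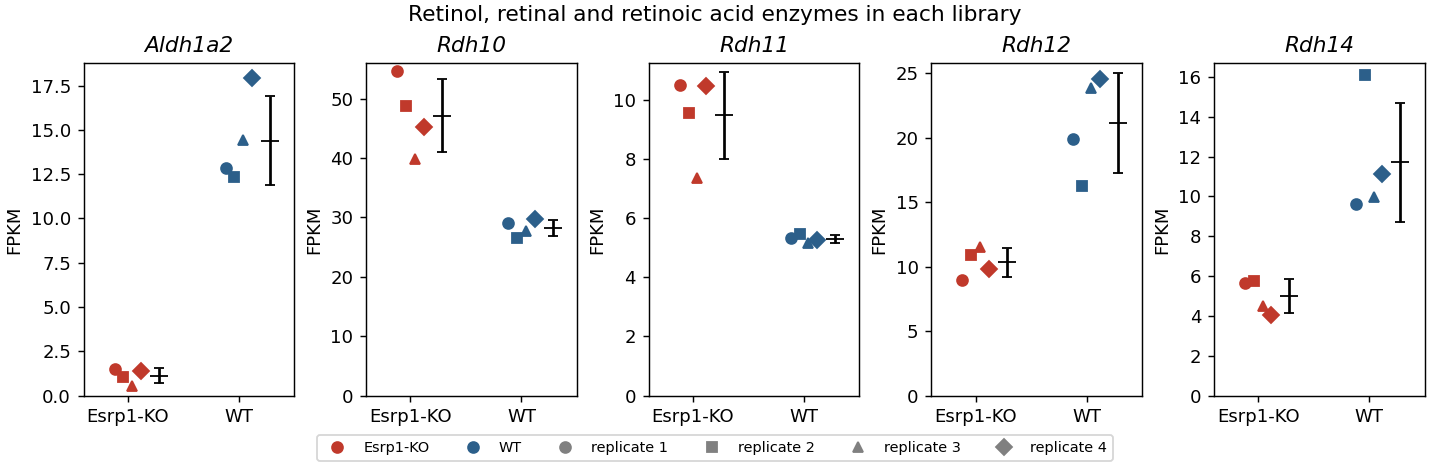
FPKM of Aldh1a2, Rdh10, Rdh11, Rdh12 and Rdh14 in each library (points; red, Esrp1-KO; blue, WT; shapes, replicate numbers), with mean and SD bars beside the points and each axis starting at 0. Aldh1a2, Rdh12 and Rdh14 are lower in all 4 Esrp1-KO libraries, and Rdh10 and Rdh11 are higher in all 4.

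Of 12 listed genes that take up, carry or store retinoids, 5 passed the filter, 2 were lower in Esrp1-KO and none was higher. Over all genes tested, the shares were 23.1% lower and 13.9% higher. Fabp5, a fatty acid binding protein that can also carry retinoic acid, had 2.95, 5.51, 5.23 and 2.06 FPKM in Esrp1-KO and 10.4, 9.45, 11.4 and 7.09 FPKM in WT (log2 fold change -1.15 ± 0.25, SE, adjusted p = 0.00591). Scarb1, a lipoprotein receptor that takes up carotenoids, averaged 2.06 ± 1.30 FPKM in Esrp1-KO and 4.51 ± 0.61 FPKM in WT (log2 fold change -0.93 ± 0.25, adjusted p = 0.0151). Scarb1 no longer passed without the filter (adjusted p = 0.0545) or with replicates 1 and 4 alone (adjusted p = 0.141).

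Crabp2, a cytosolic protein that carries retinoic acid to the nucleus, was the most abundant of the carriers. It had 103, 172, 161 and 45.6 FPKM in Esrp1-KO and 87.1, 127, 101 and 70.6 FPKM in WT, and the groups overlapped (log2 fold change 0.18 ± 0.38, adjusted p = 0.743). In both groups replicates 2 and 3 were the highest and replicate 4 the lowest. Stra6l, a relative of the retinol transporter STRA6, averaged 2.94 ± 0.85 FPKM in Esrp1-KO and 3.68 ± 0.70 FPKM in WT (adjusted p = 0.284). Bco1, which cleaves beta-carotene to retinal, averaged 0.939 ± 0.29 FPKM in Esrp1-KO and 1.99 ± 0.76 FPKM in WT. Its adjusted p was 0.0539, and 0.0314 with the replicate number as a block. It was named after its values were seen, and without WT replicate 2 its adjusted p was 0.00411.

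On the list for retinoic acid catabolism, which also holds P450 genes of wider use and their reductase, 1 of 5 listed genes passed the filter. Of its CYP26 genes, both below the filter, Cyp26a1 ranged from 0 to 0.0197 FPKM in Esrp1-KO and from 0 to 0.0975 FPKM in WT. Cyp26c1 ranged from 0.02 to 0.230 FPKM in Esrp1-KO and from 0 to 0.0868 FPKM in WT. These CYP26 genes were named after their values were seen, and their groups overlapped. Por, the reductase that feeds electrons to microsomal P450 enzymes, averaged 2.25 ± 0.71 FPKM in Esrp1-KO and 2.02 ± 0.53 FPKM in WT (adjusted p = 0.699). Below the filter, Cyp1b1, a P450 able to oxidise retinol and retinal, ranged from 0 to 0.0548 FPKM in Esrp1-KO and from 0.835 to 1.56 FPKM in WT. Like it, Ces1d, a carboxylesterase with retinyl ester hydrolase activity, ranged from 0.0299 to 0.117 FPKM in Esrp1-KO and from 0.855 to 2.14 FPKM in WT. Ces1d was named after its values were seen, and both are among the 54 pathway genes below the filter.

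Among other aldehyde dehydrogenases, 5 of 16 listed genes passed the filter, with 1 higher and 1 lower. The shares over all genes tested were 13.9% higher and 23.1% lower. Aldh6a1, a mitochondrial enzyme of valine breakdown, had 10.6, 5.37, 7.97 and 12.1 FPKM in Esrp1-KO and 2.57, 3.04, 1.90 and 2.26 FPKM in WT (log2 fold change 1.5 ± 0.22, SE, adjusted p = 0.000732). Exons of Bbof1 on the other strand cover 18.6% of its exons, and Bbof1 itself averaged 0.952 ± 0.08 FPKM in Esrp1-KO and 0.664 ± 0.10 FPKM in WT. Aldh18a1, a proline synthesis enzyme, averaged 4.58 ± 1.26 FPKM in Esrp1-KO and 8.29 ± 2.27 FPKM in WT (log2 fold change -0.73 ± 0.21, adjusted p = 0.0241). That call was lost when WT replicate 1, 3 or 4 or Esrp1-KO replicate 2 or 3 was left out, with adjusted p between 0.0526 and 0.0659, with no filter (0.0726), and in fits to replicates 1 and 4 alone (0.0544) or 2 and 3 alone (0.0596).

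Aldh9a1, which oxidises aminobutyraldehyde, was the most abundant of this list, with 171, 77.8, 57.0 and 96.9 FPKM in Esrp1-KO and 79.8, 63.1, 47.1 and 81.6 FPKM in WT. The groups overlapped, but each Esrp1-KO library was above the WT library of the same number, and the adjusted p was 0.258, or 0.0493 with the replicate number as a block. Aldh2, the mitochondrial acetaldehyde enzyme, averaged 2.42 ± 0.30 FPKM in Esrp1-KO and 1.85 ± 0.38 FPKM in WT (adjusted p = 0.154, and 0.0474 after quantile normalization).

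Of the nuclear receptors that pair with RXR, 6 of 15 listed passed the filter, and 2 were higher in Esrp1-KO and none was lower. All genes tested held 13.9% higher and 23.1% lower, and no direction is read from so few genes. Pparg, the fatty acid receptor of adipocytes, had 34.9, 34.8, 48.5 and 43.5 FPKM in Esrp1-KO and 23.7, 19.5, 22.2 and 20.8 FPKM in WT, with no overlap (log2 fold change 0.87 ± 0.14, SE, adjusted p = 0.00118). Ppara, the fatty acid receptor of liver, averaged 2.26 ± 0.21 FPKM in Esrp1-KO and 1.14 ± 0.17 FPKM in WT (log2 fold change 0.61 ± 0.12, adjusted p = 0.00353, and 0.101 with replicates 2 and 3 alone). Pparg was thus far more abundant than every retinoic acid receptor and RXR measured.

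Of the other partners, Nr1h2 (the oxysterol receptor LXR beta) averaged 5.08 ± 2.09 FPKM in Esrp1-KO and 6.77 ± 1.34 FPKM in WT (adjusted p = 0.213, and 0.0493 with the block). Without Esrp1-KO replicate 1 it passed, with an adjusted p of 0.0326. Nr2c1, the orphan receptor TR2, averaged 2.55 ± 0.42 FPKM in Esrp1-KO and 4.04 ± 1.09 FPKM in WT (adjusted p = 0.0519, and 0.0357 with the block). It passed without WT replicate 3 (adjusted p = 0.0163) and without Esrp1-KO replicate 1 (adjusted p = 0.0386).

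The coregulators of these receptors were well expressed, with all 20 listed and 14 past the filter, of which 4, or 28.6%, were lower in Esrp1-KO and none was higher. Over all genes tested 23.1% were lower and 13.9% higher. Ncoa3, a histone acetyltransferase-recruiting coactivator, had 14.0, 12.4, 11.8 and 12.6 FPKM in Esrp1-KO and 20.8, 19.4, 20 and 21.6 FPKM in WT (log2 fold change -0.65 ± 0.11, SE, adjusted p = 0.00137). Nrip1 (RIP140), a corepressor needed in the ovary for egg release, averaged 1.07 ± 0.36 FPKM in Esrp1-KO and 2.27 ± 0.19 FPKM in WT (log2 fold change -0.67 ± 0.14, adjusted p = 0.00554). The other two were Tbl1xr1, a subunit of NCoR complexes (log2 fold change -0.56 ± 0.14, adjusted p = 0.00938), and the corepressor Lcor (-0.53 ± 0.13, adjusted p = 0.0101). With replicates 1 and 4 alone Tbl1xr1 (0.0934) and Lcor (0.0756) no longer passed, and with replicates 2 and 3 alone Nrip1 (0.103), Tbl1xr1 (0.0865) and Lcor (0.126) did not. Sin3a, the most abundant of the coregulators, and the acetyltransferase gene Crebbp did not pass, with Sin3a at 97.9 ± 6.85 FPKM in Esrp1-KO and 103 ± 7.74 FPKM in WT and Crebbp at 16.1 ± 2.45 FPKM in Esrp1-KO and 14.4 ± 1.27 FPKM in WT.

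Genes known in other tissues to be induced by retinoic acid went both ways. Of 14 listed, 5 passed the filter. Pbx2 was higher, Meis2 and Nrip1 were lower, and Crabp2 and Dhrs3, described above, did not pass the threshold. Among all genes tested 13.9% were higher and 23.1% lower. Meis2, a homeobox cofactor of HOX proteins, had 144, 104, 146 and 132 FPKM in Esrp1-KO and 181, 168, 186 and 174 FPKM in WT (log2 fold change -0.44 ± 0.13, SE, adjusted p = 0.0254). Its partner Pbx2 averaged 2.43 ± 0.65 FPKM in Esrp1-KO and 1.31 ± 0.30 FPKM in WT (log2 fold change 0.56 ± 0.16, adjusted p = 0.0226). Both calls were weak: Meis2 was lost without WT replicate 1, 3 or 4 or Esrp1-KO replicate 4 (adjusted p 0.0549 to 0.0651) with no filter (0.0539) and after median-ratio scaling (0.0948), and Pbx2 without WT replicate 1 (0.0613) and with no filter (0.0593). Neither passed with replicates 1 and 4 or 2 and 3 alone, with adjusted p from 0.0859 to 0.131.

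Aldh1a2 lies between genes that did not move as one. On its left, Aqp9, a channel for water and glycerol on the opposite strand with its start 47.1 kb away, had 23.0, 12.9, 10.9 and 14.9 FPKM in Esrp1-KO and 40.1, 26.9, 25.9 and 36.9 FPKM in WT (log2 fold change -1.05 ± 0.23, SE, adjusted p = 0.00585). Further left, the sheddase Adam10 averaged 15.2 ± 2.06 FPKM in Esrp1-KO and 15.9 ± 0.57 FPKM in WT (adjusted p = 0.693). On its right, Cgnl1, a junction protein, averaged 2.66 ± 0.25 FPKM in Esrp1-KO and 5.85 ± 0.60 FPKM in WT (log2 fold change -0.90 ± 0.12, adjusted p = 0.000397). Between Aldh1a2 and Cgnl1, Myzap, below the filter, ranged from 0.291 to 0.377 FPKM in Esrp1-KO and from 0.078 to 0.209 FPKM in WT. Polr2m, a polymerase-associated protein next to Aldh1a2 on the right, averaged 3.06 ± 1.13 FPKM in Esrp1-KO and 1.21 ± 0.93 FPKM in WT (adjusted p = 0.0347). Leaving out WT replicate 2, 3 or 4 or Esrp1-KO replicate 1, 3 or 4 took the p of Polr2m to between 0.0515 and 0.0864, and it was 0.108 with no filter and 0.0811 with replicates 1 and 4 alone.

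The tested genes whose levels followed Aldh1a2 most closely over the 8 libraries, by Pearson's r on log2(FPKM + 1), were the tetraspanins Tspan9 (0.998) and Tspan12 (0.997), the receptor-like gene Rell1 (0.996), the transcription factor Sox8 (0.996) and the nuclear respiratory factor Nrf1 (0.995). With the libraries in separate groups, such values mostly describe a shared difference between the groups. Tspan12 had 0.663, 0.558, 0.337 and 0.587 FPKM in Esrp1-KO and 4.74, 4.74, 6.04 and 6.90 FPKM in WT. As for Aldh1a2, Esrp1-KO replicate 3 was the lowest of its group and WT replicate 4 the highest. Tspan12 was picked for following Aldh1a2 over these same libraries, so the shared order is no separate evidence.

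Enzymes that make retinoic acid are also known from somatic cells of the ovary, so markers of other cells are given beside it. Of 16 markers of cumulus and granulosa cells, 13 were listed, and they summed to 4.26 to 5.86 FPKM in Esrp1-KO and 9.38 to 12.3 FPKM in WT. The sum lay mainly with the aromatase Cyp19a1, the KIT ligand Kitl and the nuclear receptor Nr5a2. Cyp19a1 had 1.92, 1.89, 1.35 and 2.31 FPKM in Esrp1-KO and 6.14, 5.46, 5.72 and 7.07 FPKM in WT (log2 fold change -1.31 ± 0.14, SE, adjusted p = 0.00012), and Kitl averaged 1.83 ± 0.19 FPKM in Esrp1-KO and 3.27 ± 0.54 FPKM in WT. Ptgs2, a prostaglandin synthase of cumulus cells, went the other way, with 0.198 to 0.510 FPKM in Esrp1-KO and 0.0233 to 0.175 FPKM in WT. The remaining 10, among them Fshr, Foxl2, Has2 and Ptx3, summed to 0.503 to 1.02 FPKM in Esrp1-KO and 0.245 to 1.0 FPKM in WT, and none was above 0.720 FPKM in any library. That highest value was Amhr2 in WT replicate 1, and without this library the WT sums were 0.245 to 0.396 FPKM, below every Esrp1-KO sum. Fshr, a receptor of granulosa cells, was listed at 0 in 7 of 8 libraries.

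**Figure D4:**
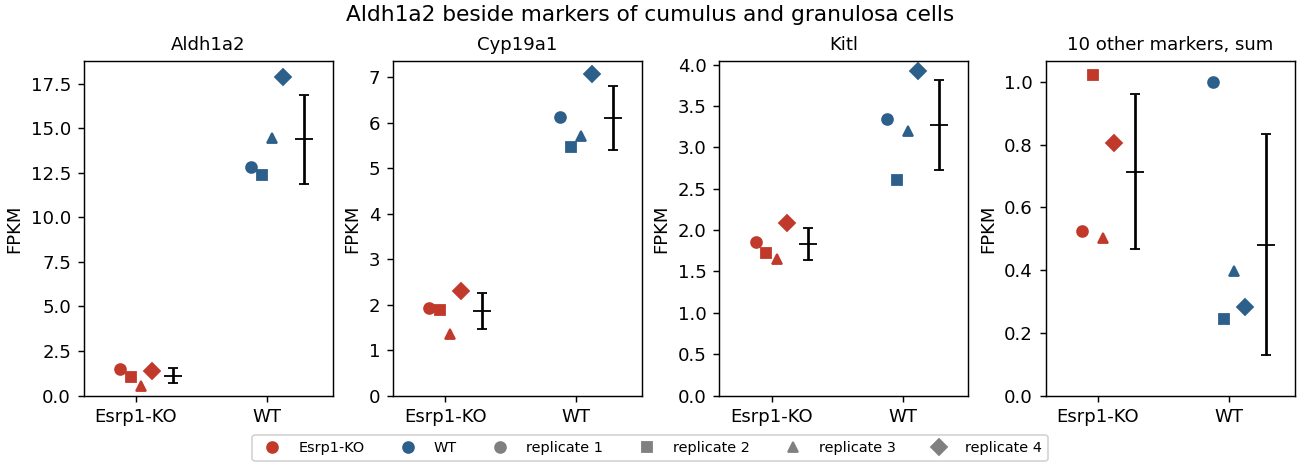
FPKM of Aldh1a2, of the cumulus and granulosa markers Cyp19a1 and Kitl, and of the sum of the 10 other listed markers, in each library (points; red, Esrp1-KO; blue, WT; shapes, replicate numbers), with mean and SD bars and axes that start at 0. Aldh1a2, Cyp19a1 and Kitl are lower in all 4 Esrp1-KO libraries, and the sum of the 10 others, up to 1.02 FPKM in Esrp1-KO and 1.0 FPKM in WT, overlaps through WT replicate 1 alone; the other WT libraries reach 0.396 FPKM.

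Of 8 theca and stroma markers, 6 were listed, summing to 1.97 to 2.33 FPKM in Esrp1-KO and 0.226 to 0.989 FPKM in WT, most of it Dcn. Of 10 blood and immune markers, 9 were listed, summing to 0.732 to 9.15 FPKM in Esrp1-KO, with the highest value in replicate 3, and 0.426 to 1.59 FPKM in WT. Of 12 early embryo markers, 11 were listed, summing to 34.3 to 45.9 FPKM in Esrp1-KO and 45.8 to 63.4 FPKM in WT. On that list Gata3, a transcription factor of trophoblast, averaged 3.17 ± 0.10 FPKM in Esrp1-KO and 14.8 ± 1.97 FPKM in WT (log2 fold change -1.91 ± 0.13, SE, adjusted p = 1.09e-05), with no overlap. Tcstv3, a gene active in early cleavage embryos, averaged 14.5 ± 4.41 FPKM in Esrp1-KO and 7.86 ± 2.11 FPKM in WT (log2 fold change 0.80 ± 0.22, adjusted p = 0.0191), a call lost without WT replicate 4 (0.0541), with no filter (0.0611) and with replicates 2 and 3 alone (0.132). Tcstv3 shares 31.4% of its 50-base stretches with transcripts of other genes, so its level may include their reads. Tcstv1, on the same list, averaged 19.99 ± 2.18 FPKM in Esrp1-KO and 27.5 ± 6.36 FPKM in WT. The groups of Tcstv1 overlapped, and it did not pass the threshold (log2 fold change -0.42 ± 0.16, adjusted p = 0.0698). Without Esrp1-KO replicate 3 the log2 fold change of Aldh1a2 was -2.72. In a library of whole eggs, fewer cells of a type and less RNA per cell cannot be told apart, and the part of other cells in these levels was not tested further.

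**Figure D5:**
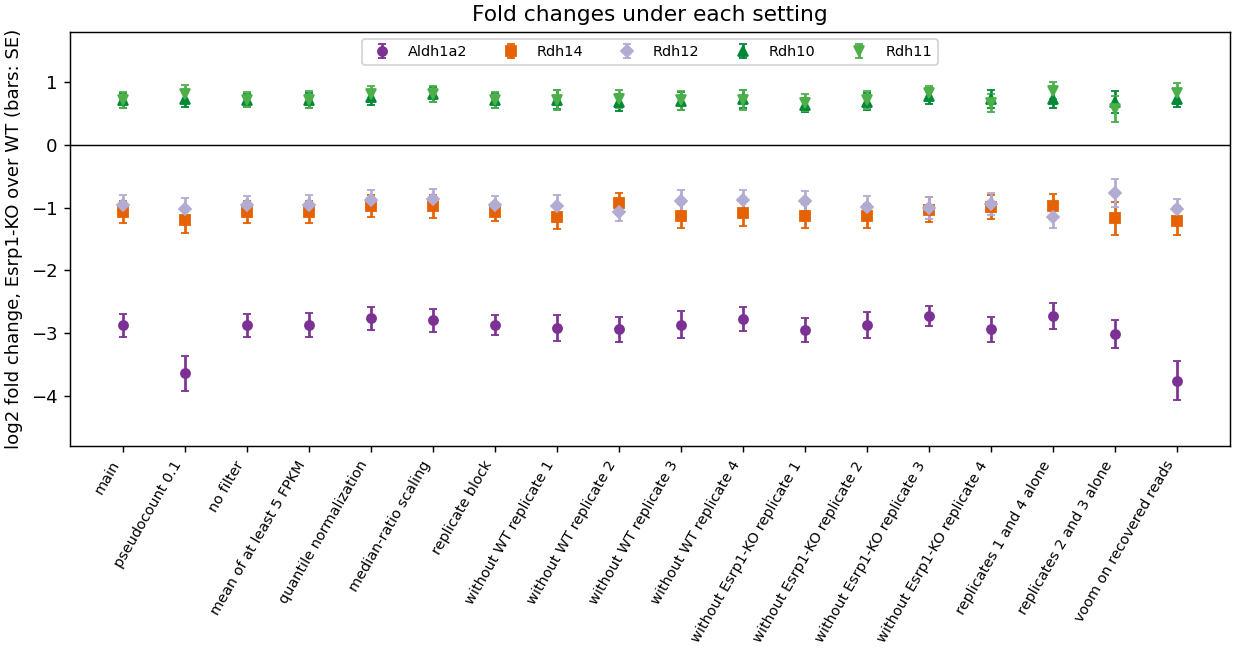
Log2 fold change (Esrp1-KO over WT) of Aldh1a2, Rdh10, Rdh11, Rdh12 and Rdh14, with SE bars, under the reported setting (leftmost, main) and each alternative. Aldh1a2 lies between -3.76 and -2.72 and Rdh10 between 0.64 and 0.81 under all the alternatives drawn.

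The values of Aldh1a2 and Rdh10 in the plot of settings are a description, since both genes were chosen with this contrast known. The lowest Aldh1a2 values, -3.64 with a pseudocount of 0.1 and -3.76 on recovered reads, came from scales that compress its low Esrp1-KO level less. Rdh14 lay between -1.21 and -0.92, Rdh12 between -1.15 and -0.76, and Rdh11 between 0.58 and 0.87. With replicates 2 and 3 alone, Rdh11 and Rdh12 no longer passed the threshold (adjusted p = 0.0959 and 0.0631).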

How the data were processed

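RNA of 8 libraries of 15 MII oocytes each was measured, 4 Esrp1-KO and 4 WT. The authors deposited FPKM per gene, on GRCm38 per the submitters' processing notes. Which aligner, counter and annotation they used is not given in the sources used here. FPKM are relative, so a change in abundant genes shifts all others.

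Files were joined by Ensembl ID, and 24812 of the 24860 IDs had a GENCODE M21 symbol. From FPKM and M21 exon lengths, whole reads (within 0.02 of a read) came out for about 90% of values above 0 and for 22629 genes. A search over lengths gave the reads of Aldh1a1, Rarg and Rxrb. Total reads were 24910430 to 32337966 per library, and copies made by PCR were not marked.

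The 8021 genes that averaged 1 FPKM or more were compared on log2(FPKM + 1) with limma 3.58.1 (R 4.3.3). The model held genotype alone, with an intensity trend, and its two-sided p-values were adjusted over the 8021 genes by Benjamini-Hochberg. These steps were tested on simulated data. Same-numbered libraries, numbered in the labels, deviated together (correlations 0.226 to 0.317 in the 4 pairs, though Esrp1-KO replicate 1 with WT replicate 4 gave 0.402 and Esrp1-KO replicate 2 with WT replicate 3 gave 0.252), so a replicate block was an alternative and is given where it changes a call. Other alternatives were a pseudocount of 0.1, no filter, a filter at 5 FPKM, quantile normalization, median-ratio scaling, leaving out each library, replicates 1 and 4 or 2 and 3 alone, and limma-voom on recovered reads.

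The 10 genes and the lists were chosen with earlier results of these data known. From each list, up to 5 genes past the threshold with the largest change and up to 2 further genes with the highest level were named, with the 5 genes most like Aldh1a2, its 3 protein-coding neighbours on either side and the 3 most abundant genes of each marker list. Genes named beyond this are said to be so, with Top2b and Bbof1, named as overlapping genes, and Fshr, Foxl2, Has2, Ptx3, Ptgs2 and Amhr2, named as markers, added to them. Not every gene the rule picks is described, and Lipc, a neighbour, was not analysed here. Shared 50-base stretches and overlapping exons were checked for 75 genes in M21. Promoters are from RefSeq, GRCm38.p6.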

Additional observations from a re-analysis of the deposited data

Results flagged for a closer look

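Dixon's test was applied to 72 groups of 4 libraries (36 genes). It marks about 1 in 20 groups by chance, and it marked 4. Aldh1a3 stood at 0.182 FPKM in WT replicate 2, with 0.00749 to 0.0231 FPKM in the other WT libraries. Rarb stood at 0.345 FPKM in Esrp1-KO replicate 3, with 0.0411 to 0.0873 FPKM in the other Esrp1-KO libraries. Rarg stood at 0.701 FPKM in WT replicate 1, with 0.0346 to 0.0875 FPKM in the other WT libraries. Por stood at 1.23 FPKM in WT replicate 2, with 2.19 to 2.37 FPKM in the other WT libraries. The 3 retinoid genes among them rest on few reads, 21, 52 and 76 in the libraries named.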

How the results depend on the processing

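Levels of a few reads limit what can be said of the receptors, and fold changes on log2(FPKM + 1) shrink toward 0 at low levels. Over all genes tested, 1850 were lower and 1111 higher in Esrp1-KO. With a filter at 5 FPKM these were 996 lower and 668 higher, with replicates 1 and 4 alone 676 higher, and with replicates 2 and 3 alone 905 lower and 584 higher. Leaving out 1 library gave 1515 to 1816 lower and 896 to 1112 higher. The count of lower genes among the 10 retinoid genes, which is a description, was 1 as reported and 2 with no filter, where Rara was also counted. Of the other pathway genes, 10 were lower and 5 higher as reported. With replicates 1 and 4 alone 6 were lower, with replicates 2 and 3 alone 4 were lower and 2 higher, with the filter at 5 FPKM 3 were higher and after quantile normalization 8 were higher. The filter at 5 FPKM and the smaller sets of libraries test fewer genes or samples, and for the rest the cause was not tested.

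With the replicate block, 2030 genes were lower and 1376 higher, and 13 pathway genes were lower and 6 higher. Besides Bco1, Nr1h2, Nr2c1 and Aldh9a1 it changed no call of a gene named here, with Tcstv1 left out of that check.

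Of 789 values of 43 single genes under alternatives, 723 kept direction and call, 44 lost the call, 10 gained it and 12 turned direction, all of the last in genes past no threshold. Leaving out single libraries gave Crabp2 -0.0475 to 0.585, Por -0.0358 to 0.176 and Adam10 -0.133 to 0.00589. With replicates 1 and 4 alone Crabp2 was at -0.194, Dhrs3 at -0.0891 and Crebbp at -0.00691. Sin3a was at 0.029 after median-ratio scaling. Adam10 was at 0.0137 after quantile normalization, 0.0272 after median-ratio scaling and 0.0835 with replicates 2 and 3 alone.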
